A study of Populus deltoides with 12 samples.

Results

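Purple leaves of ‘Zhongshanyuan’ (ZSY; F_P) were compared with green leaves of ‘L2025’ (G), with the 3 libraries of each group taken by their labels. These are 6 of the 12 RNA-seq libraries of the series, and the comparison covered all 46170 genes that the deposited tables list per library. All libraries were made from leaves of *Populus deltoides*, eastern cottonwood, and the labels give the genotype as WT in every group. The F_P libraries came from fully expanded purple leaves of 2-year-old ZSY seedlings. ZSY is a colored-leaf cultivar that carries purple and green leaves, and its fully expanded green leaves (F_G, 3 libraries) gave the same-cultivar contrast F_P vs. F_G. The G libraries came from mature, fully expanded leaves of 2-year-old seedlings of L2025, the green cultivar from which ZSY was derived. Purple leaves of ‘Quanhong’ (QHP; P, 3 libraries) of the same age were used only to look up genes at 0. The plants of all groups grew in 1 experimental field. The G leaves were the fourth or the fifth mature leaf of a plant. For ZSY a position, the third to the fifth leaf, was given with the anthocyanin assay and not with the sampling, and whether F_P and F_G leaves came from the same trees was not stated. F_P and G differ in leaf color and in cultivar, so the effect of color and the effect of cultivar cannot be told apart in F_P vs. G. Replicates are described as biological, but whether each came from a separate tree is not stated, so p-values measure the spread between these leaf samples.

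Anthocyanins are flavonoid pigments of the vacuole and are built in a chain of enzymes. Chalcone synthase (CHS) makes the first flavonoid skeleton, flavanone 3-hydroxylase (F3H) and the hydroxylases F3'H and F3'5'H decorate it, dihydroflavonol 4-reductase (DFR) and anthocyanidin synthase (ANS) turn it into a colored anthocyanidin, and a glucosyltransferase (UFGT) adds the sugar that makes the pigment stable. Flavonol synthase (FLS) draws from the same intermediates and makes colorless flavonols. In plants, R2R3-MYB proteins act together with bHLH proteins to switch these genes on, and other MYB proteins repress them. The chloroplasts of a green leaf hold antenna proteins, which bind chlorophyll and gather light, the photosystems, and the enzymes of carbon fixation.

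The study designed qRT-PCR primers for some of the genes on which the comparison turned, and these are the designed sequences of *PdeCHS2*, *PdeF3'H1*, *PdeMYB1*, and *PdeMYB2*, shown 5′ to 3′ to identify the copy of each gene that is meant.
PdeCHS2 forward: ccctgactactactttcgcatc
PdeCHS2 reverse: tcctcagtcaagtgcatgtatc
PdeF3'H1 forward: gtgacccaaaggcagatgaa
PdeF3'H1 reverse: cccagcaccgaatggtataag
PdeMYB1 forward: atggctgacactgaacattct
PdeMYB1 reverse: cgtagagcatctagtgttccaat
PdeMYB2 forward: cggagaaggcaaatggagaa
PdeMYB2 reverse: cgtctatggctgttgagatgag
In the deposited annotation, whose genome build is not named in it, *PdeCHS2* (Podel.14G153100) lies on chromosome 14 from 11144097 to 11146089 and *PdeF3'H1* (Podel.13G079600) on chromosome 13 from 6638261 to 6640746, both on the minus strand. *PdeMYB1* (Podel.04G021100) lies on chromosome 4 from 1528728 to 1529923 on the minus strand, and *PdeMYB2* (Podel.06G234300) on chromosome 6 from 23990051 to 23991463 on the plus strand. *PdeCHS1* (Podel.14G152900) is a neighbor of *PdeCHS2* on chromosome 14, from 11135855 to 11137937. The reverse primer of *PdeCHS1*, turned to the sense strand, and the forward primer of *PdeCHS2* share a run of 14 bases, given here in capitals.
PdeCHS1 reverse primer, reverse complement: ctatCCTGACTACTACTTccgga
PdeCHS2 forward primer: cCCTGACTACTACTTtcgcatc
Copies that share longer stretches can also share fragments in counting, which a run of 14 bases does not show. Whether *PdeCHS1* and *PdeCHS2* share fragments was not tested, and their separate values are uncertain to that extent.

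Expression was deposited as FPKM, the fragments of a gene scaled to its length and to a library size. Multiplied by the exon lengths of the annotation, the values gave whole fragments (within 0.02) for 100% of those checked, with 16056300 to 16628923 fragments per library in F_P, 14543579 to 15858408 in F_G, and 14940024 to 15982748 in G. A value of 1 FPKM corresponded to 14.1 to 16.7 fragments per kb of exon in these libraries. Replicates were closest in F_P (r of 0.990 to 0.991 across genes on the log2 scale, with genes not independent of each other), with 0.973 to 0.976 in F_G and 0.972 to 0.985 in G, and G replicate 3 stood farther from the other G libraries (0.972 and 0.973) than these from each other (0.985). All values below were fitted with limma on log2(FPKM + 1), a scale that understates the change of genes with few FPKM. Genes whose adjusted p (Benjamini-Hochberg, over all genes tested) was 0.05 or lower and whose log2 fold change was 1 or more in either direction were called differentially expressed genes (DEGs).

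F_P and G differed in more genes, and by larger changes, than purple and green leaves of ZSY. Of the 26633 genes tested in F_P vs. G, 8912 (33.5%) were DEGs, of which 3587 (13.5%) were higher and 5325 (20.0%) lower in F_P. In the same-cultivar contrast F_P vs. F_G, 4685 of 25713 genes (18.2%) were DEGs, 1461 (5.68%) higher and 3224 (12.5%) lower in F_P. Lower genes were the larger part of the DEGs in both contrasts, with 59.8% in F_P vs. G and 68.8% in F_P vs. F_G. On the adjusted p alone, lower genes were still the larger part in F_P vs. G (9245 higher and 9698 lower) but not in F_P vs. F_G (7373 higher and 6928 lower).

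The median absolute log2 fold change of all genes tested was 0.641 in F_P vs. G and 0.408 in F_P vs. F_G. DEGs that changed by 3 or more on the log2 scale numbered 1152 in F_P vs. G (326 higher and 826 lower) and 290 in F_P vs. F_G (42 higher and 248 lower). At a minimum of 5 there were 173 genes (37 higher and 136 lower) in F_P vs. G and 21 (2 higher and 19 lower) in F_P vs. F_G. Because both contrasts share the F_P libraries, a gene's change in F_P vs. G minus its change in F_P vs. F_G equals its difference between the 2 green groups, F_G vs. G, and the test of that difference is the test of where the 2 contrasts differ. In F_G vs. G, 5332 of 26789 genes (19.9%) were DEGs, 2506 higher and 2826 lower in F_G, with a median absolute log2 fold change of 0.429. On the 24302 genes tested in all 3 comparisons, 7245 were DEGs in F_P vs. G (29.8%), 4172 in F_P vs. F_G and 4172 in F_G vs. G (17.2% each), and the median absolute log2 fold changes were 0.591, 0.394, and 0.397, in this order. The 3 F_P libraries lay all above or all below the 3 G libraries in 75.1% of the genes. The same was true of F_P and F_G in 63.4% and of F_G and G in 58.2%. In bulk leaf tissue, fewer cells of a type and less RNA per cell cannot be told apart in any of these values.

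**Figure D1:**
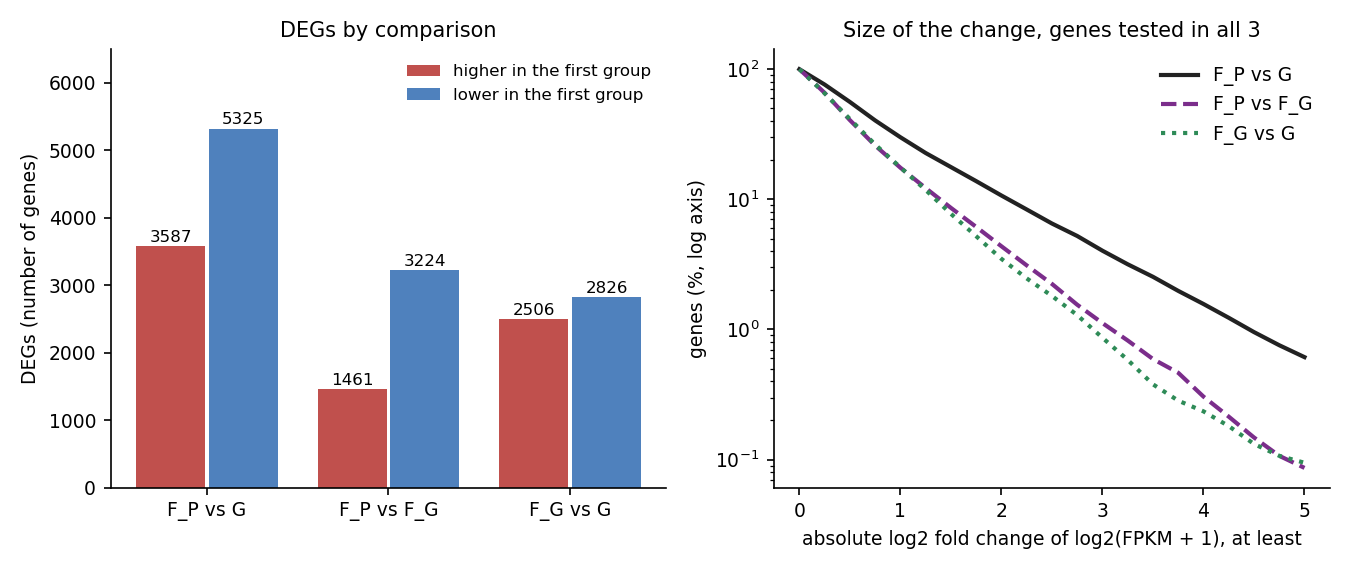
Number of DEGs higher and lower in the first-named group (left) and share of the 24302 genes tested in all 3 comparisons that reach a given absolute log2 fold change (right, log axis) for F_P vs. G, F_P vs. F_G, and F_G vs. G. F_P vs. G has 3587 higher and 5325 lower DEGs, and its curve lies above those of the other 2 comparisons, which run close to each other.

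The largest changes separated genes that were among the most abundant in one group and close to 0 in the other. Podel.01G371500 (chromosome 1, 38707911 to 38711282), which the study lists under nitrogen metabolism, had 2.69, 3.31, and 3.59 FPKM in F_P and 4187, 4237, and 3768 FPKM in G. The F_G libraries, at 1411, 1416, and 1492 FPKM, lay between and overlapped with neither group. Its log2 fold change was -9.92 (SE 0.09, adjusted p = 2.3e-09) in F_P vs. G and -8.43 in F_P vs. F_G, and the green groups differed by -1.50 (adjusted p = 7.4e-06). The largest fall on this scale among DEGs that averaged at least 10 FPKM in the higher group was that of Podel.09G134900 (chromosome 9, 10906331 to 10907979), which no table used here annotates, with 0.434, 0.606, and 0.542 FPKM in F_P and 1555, 1578, and 1766 FPKM in G (log2 fold change -10.06, SE 0.07, adjusted p = 1.1e-09).

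The largest rise by the same criteria was that of the transcript numbered 840 among those outside the annotation, which the study lists under amino acid biosynthesis, with 216.2, 218.2, and 207.2 FPKM in F_P and 0.0333, 0, and 0 FPKM in G (log2 fold change 7.73, SE 0.07, adjusted p = 2.3e-09). It was also expressed in F_G, at 74.5, 75.4, and 96.5 FPKM. Podel.14G038600 (chromosome 14, 2870315 to 2872740), listed as a heme-binding oxidoreductase, had 268.3, 273.9, and 274.8 FPKM in F_P, 24.0, 19.0, and 19.6 FPKM in F_G, and 0.906, 0.774, and 1.77 FPKM in G. Its 3 groups did not overlap, and its log2 fold change was 7.02 in F_P vs. G (SE 0.16, adjusted p = 5.2e-08), 3.65 in F_P vs. F_G, and 3.37 in F_G vs. G.

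The 37 structural genes that the study assigned to the anthocyanin pathway moved in both directions. The names are those of the study, which chose the genes with these libraries, so that the list is not independent evidence of a direction. Of the 37, 34 were tested in F_P vs. G, 13 rose, 12 fell, and 9 were not called, beside 33.5% of all genes called. *PdeF3'H3*, *PdeFLS1*, and *PdeUFGT7* were not tested because fewer than 3 libraries reached 1 FPKM. Summed over the 37 genes, expression was 2444 to 2523 FPKM in F_P, 872 to 916 FPKM in F_G, and 764 to 886 FPKM in G, although the median log2 fold change of the tested members in F_P vs. G was -0.26, and the genes that rose included *PdeCHS2* and *PdeF3'H1*, the most abundant ones in F_P and in G.

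Of the 6 *CHS* genes, 3 rose, 1 fell, and 2 were not called. *PdeCHS2* had 1063.5, 1058.8, and 1036.4 FPKM in F_P and 141.7, 138.6, and 127.0 FPKM in G. Every F_P library was above every G library, and the mean was 1053 ± 14.5 FPKM in F_P and 135.8 ± 7.77 FPKM in G (SD, n = 3 each), a ratio of 7.76 and a log2 fold change of 2.95 (SE 0.06, adjusted p = 3.0e-08). F_G was close to G, at 167.5, 183.1, and 181.0 FPKM, and differed from it by a log2 fold change of 0.38, below the minimum of 1. *PdeCHS1*, its neighbor, had 67.8, 112.0, and 80.1 FPKM in F_P and 17.3, 21.2, and 15.0 FPKM in G, also without overlap (log2 fold change 2.20, SE 0.19, adjusted p = 3.2e-05). *PdeCHS6* (chromosome 14, 11363773 to 11365749) was higher by 1.36 on the log2 scale (SE 0.16, adjusted p = 1.5e-04). *PdeCHS3* and *PdeCHS4* on chromosome 1 had log2 fold changes of 0.72 and 0.37, below the minimum. *PdeCHS5* (chromosome 3) ran the other way, with 0.0436, 0, and 0 FPKM in F_P and 3.19, 3.26, and 3.15 FPKM in G (log2 fold change -2.05, SE 0.11, adjusted p = 2.5e-06).

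The hydroxylases split by gene. *PdeF3'H1*, whose enzyme class sets the hydroxylation pattern of cyanidin-type pigments, had 549.8, 526.3, and 517.9 FPKM in F_P and 163.9, 156.9, and 120.5 FPKM in G. The groups did not overlap, F_G lay at the level of G (133.0, 129.8, and 144.9 FPKM), and the log2 fold change was 1.86 in F_P vs. G (SE 0.11, adjusted p = 4.5e-06) and 1.96 in F_P vs. F_G. *PdeF3'H2* (chromosome 1, 15102791 to 15104697) fell, with 5.18, 5.85, and 4.31 FPKM in F_P and 21.5, 21.5, and 21.9 FPKM in G (log2 fold change -1.90, SE 0.11, adjusted p = 3.3e-06).

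All called *F3H* and *F3'5'H* genes fell. *PdeF3H2* (chromosome 5, 9516286 to 9518555), the most abundant *F3H* gene, had 29.4, 33.1, and 26.3 FPKM in F_P, 121.6, 118.2, and 119.3 FPKM in F_G, and 76.5, 73.5, and 71.8 FPKM in G. F_P was the lowest group and F_G the highest, so the fall was 1.99 on the log2 scale against F_G and 1.30 against G. The study's qRT-PCR of *PdeF3H2* ran the other way, with F_P higher than F_G, and the reason was not tested. *PdeF3H1* (-3.04), *PdeF3H4* (-2.12), and *PdeF3'5'H1* (-3.03) were all below 1 FPKM in every F_P library. *PdeF3'5'H1*, whose enzyme class leads to delphinidin-type pigments, had 0.0343, 0, and 0.0329 FPKM in F_P and 8.36, 5.90, and 8.02 FPKM in G. *PdeF3H3* and *PdeF3'5'H2* overlapped between F_P and G and were not called, with log2 fold changes of 0.01 and -0.11, whose sign depended on which library was left out.

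*DFR* was represented by 1 gene. *PdeDFR* (Podel.01G063100), on chromosome 1 between 4801355 and 4808812, had 29.9, 30.7, and 32.7 FPKM in F_P, 16.6, 18.0, and 13.8 FPKM in F_G, and 13.0, 12.5, and 15.9 FPKM in G. F_P was above both green groups, which overlapped. Its rise was 1.12 against G (SE 0.10, adjusted p = 3.1e-05), just above the minimum, and 0.91 against F_G, just below it, and when a change larger than the minimum had to be shown, its rise did not pass (limma's treat, adjusted p = 0.45), and nor did that of *PdeCHS6* (adjusted p = 0.12). Of the 6 *ANS* genes, only *PdeANS3* (Podel.15G029700, chromosome 15, 2519190 to 2520712) rose, with 46.0, 45.0, and 48.1 FPKM in F_P and 9.63, 7.54, and 9.08 FPKM in G (log2 fold change 2.29, SE 0.09, adjusted p = 6.5e-07). *PdeANS5* (-1.65) and *PdeANS6* (-2.97) fell, and *PdeANS1*, *PdeANS2*, and *PdeANS4* had values of -0.42, -0.52, and -0.80. The study's own annotation tables list *PdeANS3* and *PdeANS6*, as well as *PdeFLS4*, under the transfer of hexosyl groups, which is not the activity that these names stand for, so the assignment of these 3 genes is uncertain. The only term they give for *PdeDFR* is plant hormone signal transduction, and the only pathway for *PdeF3'H2* is brassinosteroid biosynthesis. Neither gene is listed under flavonoid biosynthesis, so the assignment of both is uncertain as well.

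*PdeFLS4* (Podel.07G151300, chromosome 7, 15689992 to 15691517) rose to 68.1, 66.8, and 67.8 FPKM in F_P, against 5.63, 6.46, and 6.57 FPKM in G (log2 fold change 3.25, SE 0.07, adjusted p = 5.1e-08). F_G was between the 2, at 30.7, 35.0, and 31.8 FPKM. A gene model on the other strand overlaps *PdeFLS4*, as is also the case for *PdeUFGT11*, and the strand setting of the counting is not stated, so reads of the 2 strands may be mixed. *PdeFLS2* was not called (log2 fold change -0.71).

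Of the 11 *UFGT* genes, 10 were tested, 5 rose, 4 fell, and *PdeUFGT1* was not called. The 3 most abundant in F_P all rose, whereas *PdeUFGT10* and *PdeUFGT6*, which fell, were among the 4 most abundant in G. *PdeUFGT5* had 182.7, 192.8, and 186.7 FPKM in F_P and 47.0, 48.7, and 37.9 FPKM in G, a ratio of 4.21 (log2 fold change 2.06, SE 0.09, adjusted p = 1.1e-06). *PdeUFGT9* had 164.8, 158.1, and 157.7 FPKM in F_P and 41.8, 39.1, and 34.9 FPKM in G, a ratio of 4.15 (log2 fold change 2.03, SE 0.07, adjusted p = 3.3e-07). *PdeUFGT4* (chromosome 2, 24383816 to 24386084) had 64.5, 64.0, and 68.4 FPKM in F_P and 11.4, 10.6, and 7.11 FPKM in G. The largest rise of the family was that of a weak gene, *PdeUFGT3* (chromosome 6), with 9.38, 12.1, and 11.2 FPKM in F_P, 0.507, 1.48, and 1.87 FPKM in F_G, and 0.0793, 0.169, and 0 FPKM in G. No F_P library of these 4 genes overlapped with G, and F_G was intermediate for each, for example at 69.2, 80.9, and 76.8 FPKM for *PdeUFGT5*.

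The members that moved in one direction lay together in places, a pattern that was looked for after the values were seen and has no test. On chromosome 7, *PdeFLS3*, *PdeUFGT5*, *PdeUFGT9*, *PdeFLS4*, and *PdeUFGT11* lie in this order between 15615820 and 15760953, and all 5 rose, by 1.87 to 3.25 on the log2 scale. *PdeUFGT5* and *PdeUFGT9* are adjacent and lie on opposite strands. On chromosome 9, *PdeUFGT6*, *PdeUFGT8*, and *PdeUFGT10* lie between 8746175 and 8772652, and all 3 fell, by 3.76, 2.02, and 2.19 on the log2 scale. *PdeUFGT6* had 1.45, 1.91, and 1.25 FPKM in F_P, 9.79, 8.42, and 9.44 FPKM in F_G, and 31.9, 34.4, and 33.6 FPKM in G, with no overlap between any of the 3 groups. Close copies in such clusters can share fragments, and their separate values are uncertain to that extent.

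**Figure D2:**
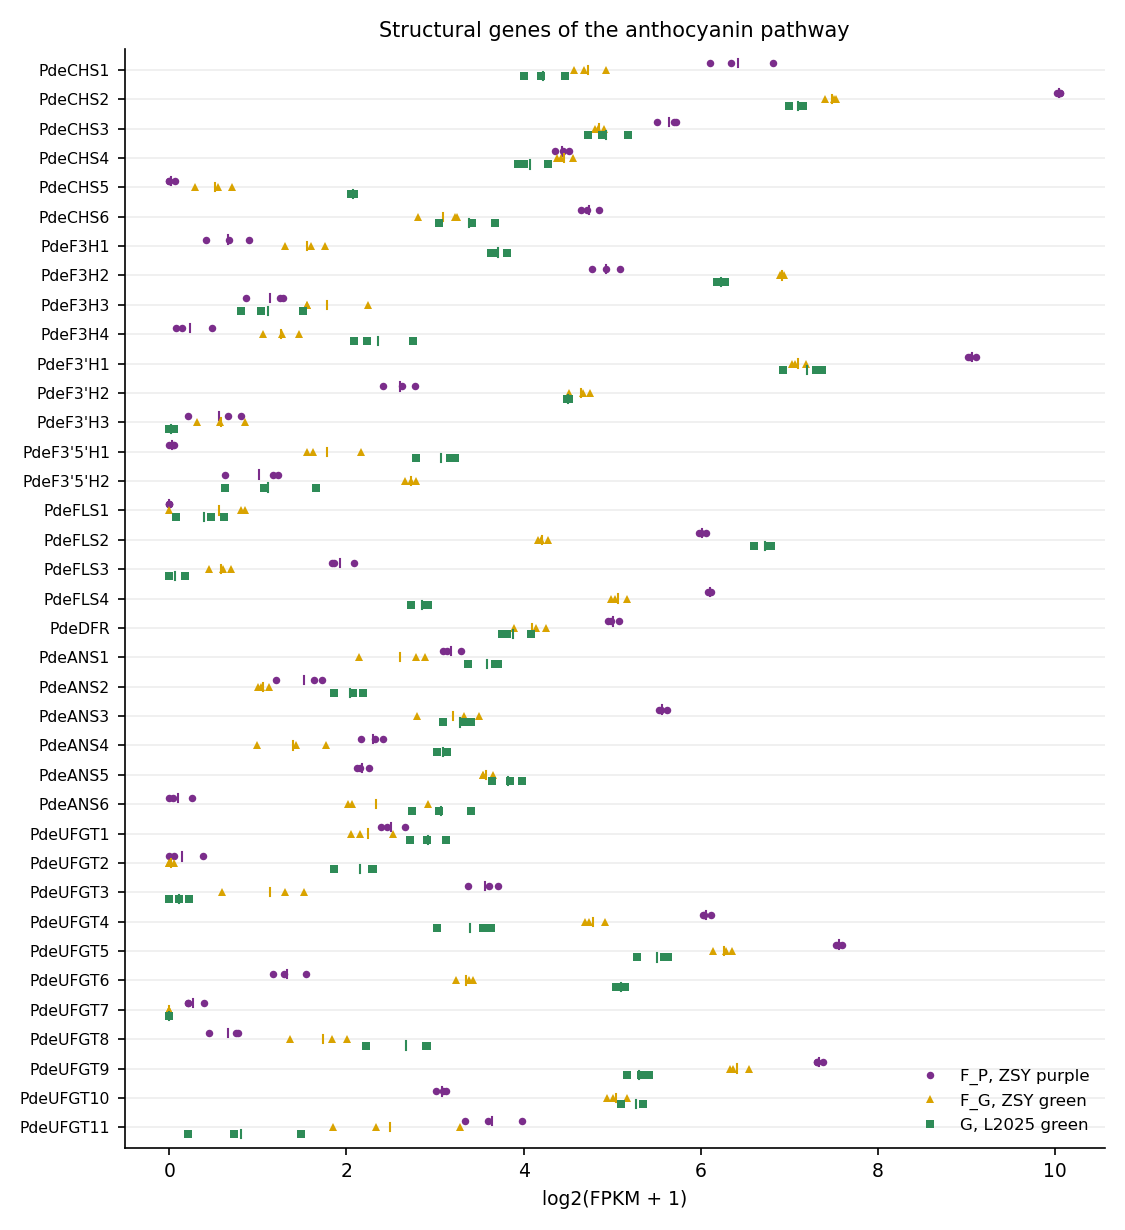
Expression of the 37 structural genes as log2(FPKM + 1), with 1 point per library and a bar at the mean of each group (F_P, circles; F_G, triangles; G, squares). *PdeCHS2* and *PdeF3'H1* are the 2 highest genes in F_P and lie above both green groups, whereas *PdeF3H2*, *PdeUFGT6*, and *PdeUFGT10* lie below both.

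Of the 22 MYB and bHLH genes in the study's tables of correlation with anthocyanin metabolites, 6 rose, 15 fell, and 1 was not called in F_P vs. G, beside 33.5% of all genes called. The study took these 22 genes from its differentially expressed transcription factors by their correlation, positive or negative, with metabolites of leaves of the same groups, so their count is not independent of the choice. Among the 11 MYB genes 4 rose and 7 fell, and among the 11 bHLH genes 2 rose and 8 fell.

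*PdeMYB1*, a MYB gene of subgroup 5, the subgroup that the study linked to anthocyanin and proanthocyanidin regulation, had 37.6, 33.3, and 41.7 FPKM in F_P, 11.4, 10.9, and 11.3 FPKM in F_G, and 5.92, 5.62, and 4.45 FPKM in G. The 3 groups were separate. The log2 fold change was 2.61 in F_P vs. G (SE 0.12, adjusted p = 1.2e-06), a ratio of 7.04 between the means, and 1.65 in F_P vs. F_G, and the green groups differed by 0.96, below the minimum (adjusted p = 5.9e-04). *PdeMYB2*, of the same subgroup, fell, with 31.3, 28.0, and 27.0 FPKM in F_P and 96.7, 111.8, and 108.3 FPKM in G (log2 fold change -1.84, SE 0.08, adjusted p = 8.5e-07). Its F_G libraries (120.8, 119.6, and 99.3 FPKM) overlapped with G.

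The other MYB genes that rose were Podel.08G221200 (chromosome 8), Podel.14G127200 (chromosome 14), and Podel.02G040700 (chromosome 2). Podel.08G221200 had 48.2, 49.2, and 50.0 FPKM in F_P and 3.44, 4.92, and 6.04 FPKM in G, a ratio of 10.2. Podel.14G127200 had 26.5, 26.6, and 23.8 FPKM in F_P, 2.03, 1.89, and 2.07 FPKM in F_G, and 4.53, 5.03, and 4.65 FPKM in G, so that F_P was above both green groups and F_G was the lowest.

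The deepest fall among the MYB genes was that of Podel.09G121500 (chromosome 9, 10141045 to 10142580), with 0.0798, 0.0795, and 0 FPKM in F_P and 102.1, 101.6, and 134.5 FPKM in G (log2 fold change -6.74, SE 0.13, adjusted p = 2.8e-08). In F_G it was as high as in G, at 102.2, 108.3, and 95.6 FPKM (log2 fold change of F_G vs. G -0.13, adjusted p = 0.39), and F_P stood alone below both green groups. Podel.07G028800 (chromosome 7), the most abundant MYB gene of the list in G, had 48.1, 46.4, and 48.3 FPKM in F_P, 183.0, 191.7, and 206.5 FPKM in F_G, and 460.5, 484.1, and 342.1 FPKM in G. The 3 groups were separate, but a gene model on the other strand overlaps this gene.

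Among the bHLH genes, Podel.03G099000 (chromosome 3, 11827507 to 11830101) was at 0 FPKM in all 3 F_P libraries, whereas F_G had 11.1, 15.0, and 10.1 FPKM and G had 53.4, 53.4, and 63.9 FPKM. Against a floor of 3 fragments per library its expression was at least 429-fold lower in F_P than in G. Podel.04G160100 fell by 4.89, Podel.07G028600 by 4.25, and Podel.09G122300 by 4.08 on the log2 scale. Podel.15G110700 (chromosome 15) rose, with 27.0, 28.6, and 28.2 FPKM in F_P and 2.05, 2.38, and 0.949 FPKM in G, a ratio of 15.6, and Podel.01G109500 rose by 1.98 on the log2 scale. Podel.01G333900 was not called (log2 fold change 0.45).

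**Figure D3:**
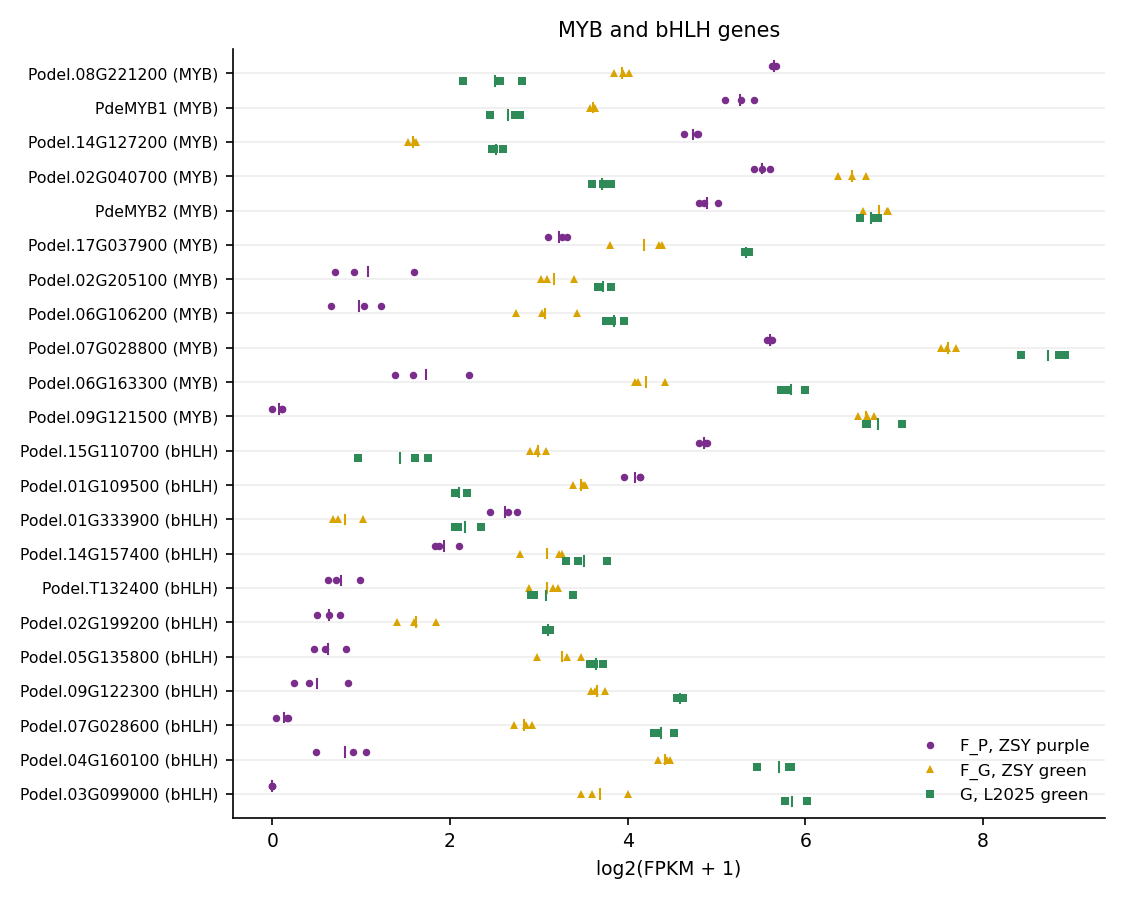
Expression of the 22 MYB and bHLH genes as log2(FPKM + 1), with 1 point per library and a bar at the mean of each group (F_P, circles; F_G, triangles; G, squares), ordered within each family by the change in F_P vs. G. 6 genes lie higher and 15 lower in F_P than in G by the DEG criteria.

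Beyond pigment synthesis, 20 KEGG and GO lists were followed. Their members are the identifiers that can be read in the study's tables of genes changed between F_P and F_G or between P and G, and most lists mix members of both sources in unequal numbers. The members were thus chosen for change in libraries that F_P vs. G shares, and their shares of DEGs are neither set against the 33.5% of all genes nor compared between contrasts as a result. Of the 734 genes, 669 were tested in F_P vs. G, and 188 rose and 327 fell. The median log2 fold change of these 669 genes was -0.91, a value that depends on the same choice and is not set against that of all genes.

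In the photosynthetic lists, more of the chosen members were lower than higher in F_P vs. G. Of the 23 antenna protein genes, all tested, 20 fell, 1 rose, and 2 were not called in F_P vs. G (median log2 fold change -1.61). In F_P vs. F_G 3 of the 23 fell, with a median of -0.45. All 23 genes were read from the study's P vs. G table and 5 of them also from its F_P vs. F_G table, so the choice of the members itself favors calls against G. Their summed expression was 7392 to 7604.5 FPKM in F_P, 9340 to 10910 FPKM in F_G, and 20767 to 23791 FPKM in G. As genes of green leaf tissue they were looked up for presence only, since they were chosen for change. None (0) of the 23 was at 0 in all libraries of any group. Podel.08G050100 (chromosome 8, overlapped by a model on the other strand) fell to 17.4, 16.4, and 14.8 FPKM in F_P, against 176.7, 177.5, and 171.0 FPKM in G (log2 fold change -3.36, SE 0.07, adjusted p = 3.6e-08). The 1 gene that rose, Podel.05G274900, was just past the minimum (1.03), and without G replicate 3 it was at 0.93 and not called.

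Of the 36 tested genes of the photosynthesis list, which includes parts of the photosystems, 24 fell and 4 rose. The sum of the list was 8763 to 8791 FPKM in F_P, 11782 to 13176 FPKM in F_G, and 26076 to 27458 FPKM in G. The deepest fall was that of Podel.02G264100 (chromosome 2), listed under photosystem I, with 0.622, 0.620, and 1.34 FPKM in F_P, 1.46, 0.0750, and 2.84 FPKM in F_G, and 129.0, 126.1, and 104.7 FPKM in G. It was near 0 in both ZSY groups, which overlapped (log2 fold change of F_P vs. F_G -0.24, adjusted p = 0.66), and high in G only. Of 37 carbon fixation genes, 22 fell and 3 rose, with sums of 3696 to 3801 FPKM in F_P, 12203 to 14698 FPKM in F_G, and 27512 to 33491 FPKM in G. A single gene, Podel.04G110100 (chromosome 4, 10104046 to 10105441), which the study also lists under glyoxylate metabolism, was a large part of this sum, with 417.4, 437.8, and 427.4 FPKM in F_P, 5094, 5204, and 5374.5 FPKM in F_G, and 11135, 11391, and 10233 FPKM in G (log2 fold change of F_P vs. G -4.67, SE 0.07, adjusted p = 1.0e-08).

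In the lists of the other leaf pigments, more of the chosen members were again lower than higher in F_P vs. G, with rises in both lists. Of 30 tested genes of porphyrin and chlorophyll metabolism, 8 rose and 13 fell in F_P vs. G (median -0.28). In F_P vs. F_G the balance was the other way, with 8 of the 30 higher and 4 lower (median 0.25). Their summed expression was 1026 to 1062 FPKM in F_P, 815 to 849.5 FPKM in F_G, and 1461 to 1501 FPKM in G. Podel.03G128000 was at 74.0, 79.5, and 79.5 FPKM in F_P and 10.5, 9.54, and 9.53 FPKM in G, and Podel.01G267400 at 2.98, 2.88, and 2.94 FPKM in F_P and 23.4, 22.8, and 26.4 FPKM in G, so both groups were separate in opposite directions. Of 22 carotenoid biosynthesis genes, 2 rose and 11 fell (median -0.71), with Podel.09G033000 at 1.20, 0.747, and 1.01 FPKM in F_P and 33.6, 34.9, and 30.9 FPKM in G. Within ZSY (F_P vs. F_G), 5 of 18 tested carotenoid genes rose and 6 fell (median -0.61).

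In the lists of growth and of the cell wall, whose members were also chosen for change, more genes were lower than higher in F_P vs. G. The DNA replication and microtubule motor lists stand for dividing cells. Because their members were chosen for change in these libraries, no share of dividing cells is read from their falls. All 18 tested DNA replication genes were called, 16 lower and 2 higher in F_P. At 0 in all 3 libraries of a group were 3 members in F_P, 1 in F_G, 1 in P, and none (0) in G. None of the 3 had at least 1 FPKM in all G libraries, so they are not among the genes at 0 counted below. Of the 25 members, 23 were chosen through P vs. G and 7 were not tested. A gene could be tested through the G libraries alone, so the count of calls is not independent of the choice of members. The sum of the DNA replication genes was 105 to 111 FPKM in F_P, 157 to 181 FPKM in F_G, and 205 to 252 FPKM in G. Of 31 microtubule motor genes, which act in cell division and transport, 27 fell and 1 rose, with sums of 57.9 to 61.2 FPKM in F_P, 126 to 146 FPKM in F_G, and 229 to 244 FPKM in G. These 2 lists moved with the lists above, and the part of dividing cells in the other changes was not tested.

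Pectinesterases act on the pectin of the cell wall, and 22 of the 28 tested genes under this term fell, whereas 5 rose (median -2.35). Podel.12G018600 (chromosome 12, 1641172 to 1645306) had 1.82, 1.79, and 1.73 FPKM in F_P, 66.3, 58.4, and 65.0 FPKM in F_G, and 131.2, 134.8, and 106.8 FPKM in G (log2 fold change of F_P vs. G -5.49, SE 0.10, adjusted p = 2.5e-08). Podel.01G174100 had 0.594, 0.266, and 0.598 FPKM in F_P and 34.7, 36.4, and 33.9 FPKM in G, and its F_G libraries (30.7, 33.8, and 32.6 FPKM) lay just below G. Of 16 xyloglucan transferase genes, whose products rebuild the wall's xyloglucan, 10 fell and 2 rose, and of 17 genes of cutin, suberine, and wax, 14 fell and 2 rose. Podel.19G124000 (xyloglucan transferase) was at 0.753, 0.708, and 0.963 FPKM in F_P, 19.1, 17.1, and 20.2 FPKM in F_G, and 61.4, 63.9, and 59.0 FPKM in G. Some members rose against the rest of their list. Podel.11G019700, under the pectinesterase term, was at 109.5, 111.0, and 106.6 FPKM in F_P and 19.5, 15.9, and 19.4 FPKM in G, and Podel.05G233000, under cutin, at 94.2, 97.4, and 95.8 FPKM in F_P and 7.16, 9.05, and 8.18 FPKM in G.

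The flavonoid and phenylpropanoid lists held both rises and falls. Of the 42 members of the flavonoid list, 12 are structural genes described above. Of 40 tested flavonoid genes, 12 rose and 21 fell, and their summed expression was nonetheless higher in F_P (3259 to 3344 FPKM) than in F_G (1443 to 1450 FPKM) and G (1331 to 1422 FPKM). Podel.13G027300 (chromosome 13, 1690267 to 1692395) had 214.3, 216.8, and 212.7 FPKM in F_P, 9.52, 12.2, and 9.35 FPKM in F_G, and 17.1, 11.6, and 14.2 FPKM in G, with both green groups far below F_P (log2 fold change of F_P vs. G 3.83, SE 0.12, adjusted p = 2.0e-07). Podel.04G031200 (chromosome 4) had 9.60, 9.30, and 9.07 FPKM in F_P, 152.9, 143.9, and 128.2 FPKM in F_G, and 151.4, 151.8, and 165.2 FPKM in G, so that its green groups overlapped and F_P stood alone. Of the 52 phenylpropanoid genes that could be read, 24 rose and 22 fell. The deepest fall was that of Podel.07G132300, a peroxidase by its GO term, at 0, 0.0873, and 0 FPKM in F_P and 253.1, 254.8, and 299.9 FPKM in G.

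Glutathione metabolism, which includes the glutathione transferases, was one of the lists with more rises than falls, with 22 higher and 16 lower of 46 tested. Its sum was 6025 to 6092.5 FPKM in F_P, 2352 to 2612 FPKM in F_G, and 2378 to 2711.5 FPKM in G. Podel.19G131300 (chromosome 19, 15243215 to 15244490) had 370.7, 385.8, and 377.2 FPKM in F_P, 30.3, 30.1, and 33.9 FPKM in F_G, and 5.70, 6.09, and 7.37 FPKM in G (log2 fold change of F_P vs. G 5.69, SE 0.09, adjusted p = 1.2e-08). Podel.01G459300 (chromosome 1) was at 269.9, 270.0, and 270.4 FPKM in F_P, 47.8, 58.7, and 52.5 FPKM in F_G, and 2.91, 2.86, and 2.84 FPKM in G. In contrast, Podel.02G014600 (chromosome 2) was at 2.30, 2.69, and 3.08 FPKM in F_P, 1.88, 3.36, and 2.75 FPKM in F_G, and 543.1, 552.0, and 430.1 FPKM in G, and the 2 ZSY groups overlapped (log2 fold change of F_P vs. F_G 0.03, adjusted p = 0.92).

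ADP binding, the GO term that nucleotide-binding resistance proteins fall under, rose with 23 higher and 9 lower of 38 tested in F_P vs. G. In F_P vs. F_G the count was 5 higher and 2 lower of 26, and in F_G vs. G 20 higher and 10 lower of 38. All 43 members were read from the P vs. G table alone, that is, were chosen for differing from the G libraries, so nothing is read from the larger counts against G. The sums were 769.6 to 779.9 FPKM in F_P, 827 to 899 FPKM in F_G, and 226 to 261 FPKM in G, with both ZSY groups above G. Podel.01G144900 and Podel.01G144500, near each other on chromosome 1, led the list. Podel.01G144900 had 74.0, 71.4, and 72.8 FPKM in F_P, 36.8, 41.2, and 36.9 FPKM in F_G, and 1.62, 1.62, and 1.15 FPKM in G (log2 fold change of F_P vs. G 4.91, SE 0.10, adjusted p = 3.6e-08, and of F_G vs. G 4.00, adjusted p = 6.2e-07). They also stand in the plant-pathogen interaction list, of whose 61 tested genes 23 rose and 16 fell in F_P vs. G. Within ZSY the balance of that list was the other way, with 8 higher and 20 lower of 56 in F_P vs. F_G. Its sum was 3298 to 3358 FPKM in F_P, 4227 to 4280 FPKM in F_G, and 2273 to 2493 FPKM in G.

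The remaining lists changed in both directions. In nitrogen metabolism 10 rose and 12 fell of 28, in starch and sucrose metabolism 14 rose and 26 fell of 51, and in plant hormone signal transduction 23 rose and 26 fell of 64. In the circadian rhythm list, which includes all 6 *CHS* genes, 9 rose and 3 fell of 20, and in the spliceosome list 16 rose and 9 fell of 46. Podel.18G029700 (circadian rhythm), a transcription factor by its GO term, had 126.0, 123.4, and 122.9 FPKM in F_P, 19.3, 12.9, and 15.9 FPKM in F_G, and 18.8, 18.6, and 21.2 FPKM in G, so that the green groups overlapped and F_P was above both (log2 fold change of F_P vs. G 2.61, SE 0.06, adjusted p = 6.8e-08). Podel.02G096300 (nitrogen metabolism) had 97.6, 99.1, and 99.8 FPKM in F_P and 1.87, 1.70, and 2.06 FPKM in G, and Podel.08G094600 (starch and sucrose metabolism) had 70.4, 70.4, and 70.0 FPKM in F_P, 74.8, 72.9, and 67.6 FPKM in F_G, and 6.07, 5.81, and 7.16 FPKM in G. The 2 ZSY groups overlapped for Podel.08G094600 (log2 fold change of F_P vs. F_G -0.03, adjusted p = 0.68). In the hormone list, which includes *PdeDFR*, Podel.14G143100 was at 66.6, 67.9, and 63.8 FPKM in F_P, 21.0, 18.4, and 21.9 FPKM in F_G, and 2.79, 2.87, and 4.41 FPKM in G. Podel.05G185400 of the same list was at 5.60, 5.51, and 4.83 FPKM in F_P, 21.5, 19.3, and 22.8 FPKM in F_G, and 48.3, 45.6, and 53.8 FPKM in G. For both genes F_G lay between F_P and G without overlap.

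**Figure D4:**
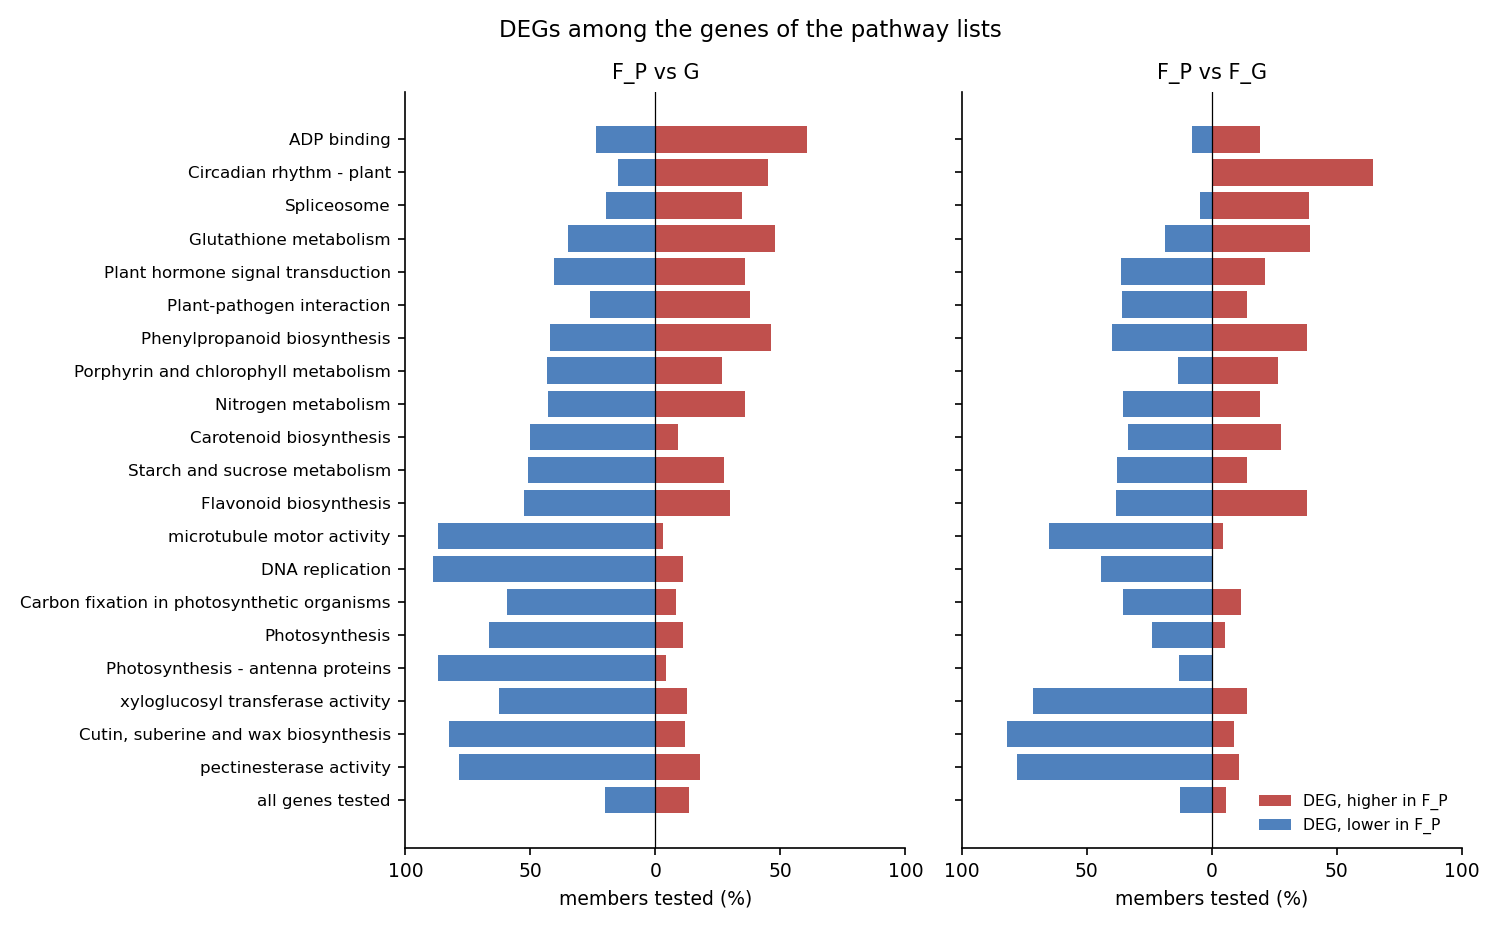
Share of the tested members of each of 20 KEGG and GO lists that were DEGs, higher in F_P to the right and lower in F_P to the left, for F_P vs. G (left panel) and F_P vs. F_G (right panel), with all genes tested in the bottom row. The antenna protein list has 20 of 23 lower genes in F_P vs. G and 3 of 23 in F_P vs. F_G, and the ADP binding list 23 of 38 and 5 of 26 higher genes, but both lists were chosen through the G libraries, so their panels are no comparison of the contrasts.

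Genes at 0 on one side were more frequent in F_P vs. G than within ZSY. A gene was counted when all 3 libraries of one group were at 0 FPKM and all 3 of the other had at least 1 FPKM. In F_P vs. G, 411 genes were at 0 in F_P, 1.71% of the 24044 genes with at least 1 FPKM in all G libraries. In the other direction, 136 genes were at 0 in G, 0.605% of the 22479 genes with at least 1 FPKM in all F_P libraries. In F_P vs. F_G, 106 genes were at 0 in F_P (0.447% of 23700) and 21 were at 0 in F_G (0.0934% of 22479), and in F_G vs. G, 137 were at 0 in F_G (0.570% of 24044) and 92 at 0 in G (0.388% of 23700). In each of the 3 contrasts more genes were at 0 in the first-named group. With 1 library fewer, fewer values have to meet the limits, so the counts cannot fall. They grew most, relative to their size, for the pair within ZSY. There the genes at 0 in F_P numbered 160 without F_P replicate 1 and 161 without F_P replicate 2. Those at 0 in F_G numbered 30 without F_G replicate 1, 32 without F_P replicate 3 or F_G replicate 2, and 58 without F_G replicate 3. F_G replicate 3 had 34047 genes above 0, against 32819 and 32704 in F_G replicates 1 and 2. The size of the growth is thus not a matter of construction alone, and its reason was not tested.

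The 411 genes were looked up in the other groups. In F_G, 106 of them were also at 0 in all 3 libraries, 77 had at least 1 FPKM in all 3, and 228 lay between. In P, 171 were at 0, 10 had at least 1 FPKM, and 230 lay between, and 94 genes were at 0 in F_P, F_G, and P. Of the 136 genes at 0 in G, 9 were at 0 and 63 had at least 1 FPKM in F_G, 1 was at 0 and 84 had at least 1 FPKM in P, and 55 had at least 1 FPKM in F_P, F_G, and P. Most genes at 0 were weakly expressed on the other side, with a median of 3.47 FPKM in G for the 411 genes and 3.56 FPKM in F_P for the 136 genes, and 80 and 23 of them averaged at least 10 FPKM.

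The models of the genes at 0 are described beside those of all expressed genes, with no test. Of the 411 genes, 28 (6.81%) were outside the annotation, and among the annotated ones 8.62% lay on unplaced scaffolds, against 2.60% of all genes expressed in G. A single exon was annotated for 28.7% of them, against 12.3%, and the median exon length was 1051 bases, against 1638 bases. The 2 sides are not matched for expression, with medians of 3.53 and 10.5 FPKM in G. The genes at 0 in F_P and expressed in F_G were alike in exons (29.2% single, median 1056 bases). Of these, 1.89% lay on unplaced scaffolds and none (0) was outside the annotation. Of the 136 genes, 37 (27.2%) were outside the annotation, and the median exon length of the annotated ones was 546 bases, against 1623 bases of all genes expressed in F_P. A floor of 3 fragments corresponds to more FPKM in a short gene, so the level that a value of 0 allows differs between genes.

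The highest genes at 0 were far above this floor. Podel.19G025200 (chromosome 19, 2568021 to 2571022), by its GO term a hydrolase of ester bonds, was at 0 in F_P, at 5.98, 7.19, and 9.44 FPKM in F_G, and at 433.8, 455.7, and 377.6 FPKM in G, at least 3171-fold lower in F_P than in G. In P it was at 0.0810, 0.316, and 0.205 FPKM. Podel.13G181500 (chromosome 13, 15993506 to 15993796), which no table used here annotates, was at 0 in F_P, at 0, 1.24, and 0 FPKM in F_G, and at 273.1, 280.5, and 215.4 FPKM in G. Of the 411 genes, 24 belong to the lists above, among them the bHLH gene Podel.03G099000 and Podel.05G081500, a glycosyl hydrolase by its GO term, at 0 in F_P, 12.5, 11.8, and 15.8 FPKM in F_G, and 131.9, 133.6, and 94.6 FPKM in G.

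On the other side, Podel.T105000 (on an unplaced scaffold) was at 97.8, 107.9, and 100.1 FPKM in F_P, 69.9, 70.2, and 55.6 FPKM in F_G, and 0 in all G libraries, at least 1019-fold higher in F_P than in G. The transcript numbered 170 outside the annotation was at 89.8, 91.9, and 91.8 FPKM in F_P, 84.3, 88.9, and 91.4 FPKM in F_G, and 0 in all G libraries. Both were high in purple and in green leaves of ZSY and also above 0 in every P library, at 83.9, 76.0, and 80.5 FPKM for Podel.T105000 and 35.8, 57.4, and 59.8 FPKM for transcript 170. None of the 136 genes (0) belongs to the lists. Of the 411 genes at 0 in F_P, the 77 and the 228 described above had values over 0 in at least 1 library of F_G, the green leaves of the same cultivar. For the 106 genes at 0 in both ZSY groups and the 136 genes at 0 in G, a gene that is missing from a cultivar and a gene that is not transcribed in its leaves cannot be told apart from these values.

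**Figure D5:**
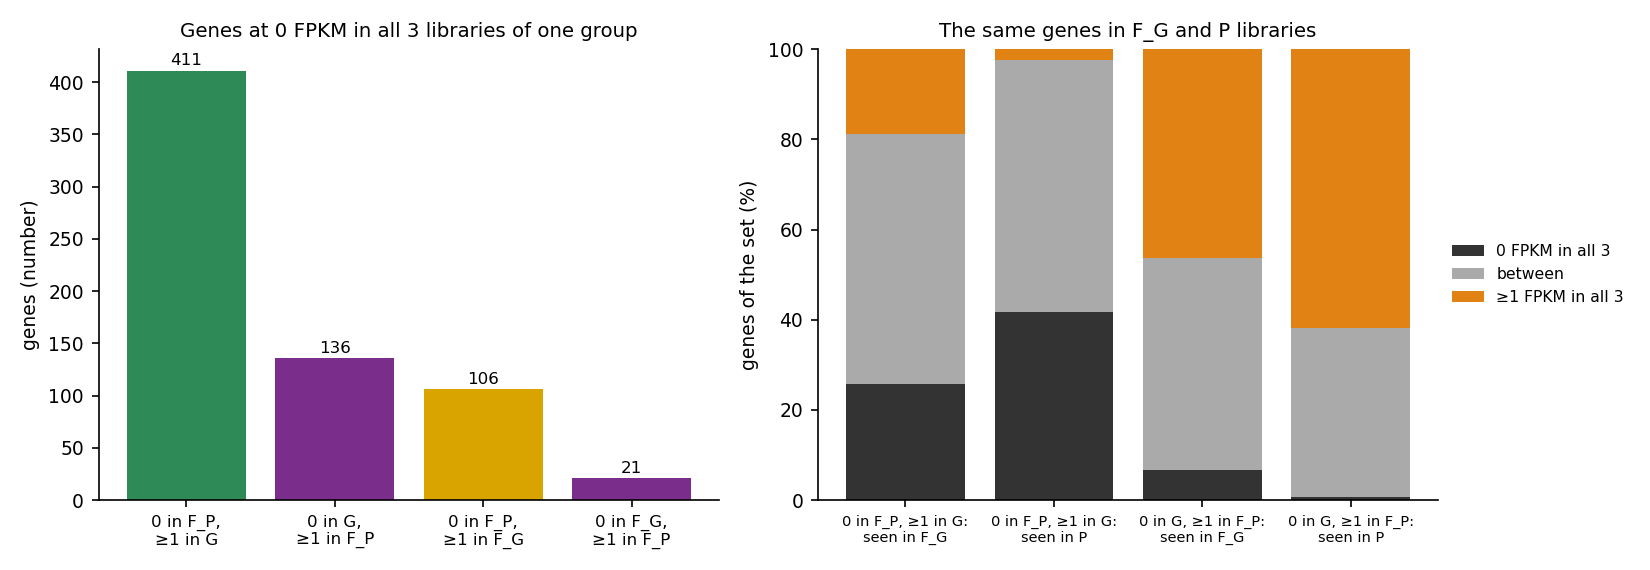
Number of genes at 0 FPKM in all 3 libraries of one group and at least 1 FPKM in all 3 of the other (left), and the state of the 411 and 136 genes of F_P vs. G in the F_G and the P libraries (right, share of the set). The bars are 411, 136, 106, and 21 genes, and the genes at 0 in F_P are at 0 or between in P for all but 10.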

How the data were processed

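Leaf mRNA of 12 libraries was sequenced in pairs by the authors, aligned with HISAT2, and assembled with StringTie. Their versions were not given in the sources used here. FPKM per gene and library were deposited by the authors and used unchanged. Exon lengths were taken from the deposited annotation, and the fragments behind each value were recovered from them. The median-of-ratios factor was 1.01 in all 12 libraries, so that the deposited values already carry a scaling. Since FPKM are not counts, limma 3.58.1 (trend) in R 4.3.3 was fitted to log2(FPKM + 1) over the 6 libraries compared, for genes that reached 1 FPKM in 3 or more of these libraries. This filter left 26633 genes in F_P vs. G, and 19537 were not tested. The procedure was tested on simulated data. Python 3.11.15 served for tables (pandas 2.3.3, numpy 2.4.6) and plots (matplotlib 3.10.9).

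The groups were taken from the labels. The named genes are the genes that the study names (structural, MYB, and bHLH genes), per list at most 2 rises and 2 falls that are largest among DEGs with no overlap and a mean of at least 10 FPKM, the 2 largest of each direction over all genes, and in each direction the 2 highest genes at 0, 133 in all. The RefSeq table of 31722 genes shared no identifier with the files (0 matched), so annotations are the KEGG and GO terms of the study's tables. Long cells of these tables could be read in part only, so the lists hold readable members. For P vs. G these were 43 of 136 genes under ADP binding and 38 of 92 under phenylpropanoid biosynthesis, but all 23 antenna protein genes. The members and lists were chosen with earlier results of these data known. Alternatives were 2 other scalings, no filter, a pseudocount of 0.1, no minimum fold change, a stricter adjusted p (0.01), limma's treat with a minimum of 1, a joint fit of the 12 libraries, the replicate number as a block, voom on recovered fragments, and leaving out each library. For genes at 0, the FPKM limits were varied.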

Additional observations from a re-analysis of the deposited data

Results flagged for a closer look

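For 3 genes named above, F_P lay between the 2 green groups, higher than one and lower than the other, and the difference between the green groups, which is the test of the difference between the 2 contrasts, passed the threshold. All p-values are adjusted p-values from limma. *PdeANS4* (chromosome 13) had 3.99, 3.47, and 4.31 FPKM in F_P, 1.70, 0.991, and 2.40 FPKM in F_G, and 7.72, 7.82, and 7.11 FPKM in G. Its log2 fold change was -0.80 in F_P vs. G, 0.90 in F_P vs. F_G, and -1.70 in F_G vs. G (adjusted p = 3.4e-04). *PdeFLS2* (chromosome 4) had 62.0, 65.4, and 62.9 FPKM in F_P, 18.3, 17.3, and 16.9 FPKM in F_G, and 109.4, 108.0, and 96.2 FPKM in G, with log2 fold changes of -0.71 in F_P vs. G, 1.80 in F_P vs. F_G, and -2.51 in F_G vs. G (adjusted p = 6.4e-07). The MYB gene Podel.02G040700 (chromosome 2) ran the other way, with 47.4, 42.0, and 44.7 FPKM in F_P, 101.6, 91.3, and 81.7 FPKM in F_G, and 13.0, 11.1, and 12.2 FPKM in G. Its log2 fold change was 1.80 in F_P vs. G, -1.01 in F_P vs. F_G, and 2.82 in F_G vs. G (adjusted p = 1.1e-06). The 3 groups did not overlap for any of these genes, and the cause was not tested.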

How the results depend on the processing

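The number of DEGs depended mainly on the minimum fold change. With no minimum it was 18943 in F_P vs. G, 14301 in F_P vs. F_G, and 13133 in F_G vs. G, and with limma's treat and a minimum of 1 it was 5680, 2120, and 2051 in this order. With each library left out in turn, it was 8820 to 8972 in F_P vs. G, 4627 to 4952 in F_P vs. F_G, and 5238 to 5447 in F_G vs. G, with 25 of the structural genes called in each case, 119 to 120 of the named genes, and 514 to 520 of the list members. The other alternatives kept these numbers within 1.5 times, and total-fragment scaling moved the median log2 fold change of all genes by 0.07 in F_P vs. G, -0.06 in F_P vs. F_G, and 0.12 in F_G vs. G. Genes at 0 depended on the limits, in total and by direction. With any value above 0 on the other side there were 1997 in F_P vs. G, 1438 at 0 in F_P and 559 at 0 in G, and 669 at 0 in F_P and 216 at 0 in F_G within ZSY. With at least 5 FPKM there were 161, 125, 36, 19, and 0 in this order. With values below 0.1 FPKM counted as 0, there were 926 in F_P vs. G, 755 of them low in F_P, and 244 low in F_P against F_G. With each library left out in turn there were 635 to 693 in F_P vs. G, 468 to 524 at 0 in F_P and 156 to 190 at 0 in G, and 131 to 161 at 0 in F_P and 29 to 58 at 0 in F_G within ZSY, the highest of the last without F_G replicate 3. Of the 130 named genes tested, 16 changed in sign or call under an alternative. The sign turned only in genes that were not called, *PdeF3'5'H2* (log2 fold change -0.35 to 0.16 with each library left out in turn, 0.09 without F_P replicate 2) and *PdeF3H3* (-0.14 to 0.21, with -0.05, -0.06, -0.14, and -0.03 without F_P replicate 2, F_P replicate 3, G replicate 2, and G replicate 3). The replicate numbers did not pair the libraries, since same-numbered F_P and G libraries deviated from their group means with r of -0.0052, -0.0010, and 0.0034, and with the number as a replicate block 8917 genes were DEGs in F_P vs. G, 4720 in F_P vs. F_G, and 5310 in F_G vs. G. Depth limits weak and short genes, and transcripts outside the annotation have no recovered fragments.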
